A study of Picea abies with 36 samples.

Results

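Norway spruce (Picea abies) hypocotyls that had carried BAP together with IAA for 10 days were compared with hypocotyls that had carried IAA alone for the same time. BAP (6-benzylaminopurine) is a cytokinin, and IAA (indole-3-acetic acid) is the main natural auxin. The contrast thus sets a cytokinin given together with auxin against auxin alone. The 6 libraries were chosen by their labels out of 36 in the series, 3 with BAP+IAA and 3 with IAA, and no Mock library entered the contrast. Seedlings about 2 weeks old received lanolin paste on the middle of the hypocotyl, the stem below the cotyledons, a single time. The paste held 50 mM IAA in the IAA group and 135 mM BAP with 50 mM IAA in the combined group. Libraries of BAP alone (135 mM) and Mock at 10 days, and of the same treatments at 5 and 15 days, served as further readouts from other libraries. The labels do not give the number of seedlings in a library, the makeup of the Mock preparation or how much tissue around the paste was taken. Nothing in them says that replicates came from separate plants, and a p-value here measures the spread between libraries of a group, pooled over the 36 libraries of the model, which could be technical.

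Auxin and cytokinin are plant hormones that set where cells divide and what organs they form. Auxin acts by the breakdown of repressor proteins that hold back auxin-responsive genes. Cytokinin acts through membrane receptors and a chain of phosphate transfers that ends on nuclear response regulators. In Arabidopsis, where most of this was worked out, each hormone changes the making, transport or signalling of the other, and their balance steers cultured tissue towards roots or shoots.

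The table names gene models only by identifiers. No gene names were paired with them, so lists of hormone, cell wall, photosynthesis or cell cycle genes were not tested, the tissue label could not be checked against marker genes, and no function is given for any model. Genes are described as groups, with 2 models that rose and 2 that fell named by a rule. In bulk tissue, fewer cells of a type and less RNA per cell cannot be told apart.

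The 6 libraries held 13038744 to 17863524 reads in gene models, within the range of 12531117 to 22280720 over all 36. A library had reads in 40736 to 42451 gene models. Log2 levels of the combined libraries correlated with each other at r = 0.964 to 0.97 across genes, those of the IAA libraries at 0.963 to 0.974, and libraries of different groups at 0.859 to 0.871. In a principal component analysis of the 6 libraries the first component held 72.1% of the variance. On it the combined libraries lay at -116, -123 and -116 and the IAA libraries at 116, 118 and 120, without overlap. The second component held 9.53% and set replicate 1 apart in both groups, at 56.5 in the combination and 64 with IAA, while replicates 2 and 3 lay between -36.3 and -19.8. The median SD of a gene's log2 level was 0.241 in the combined group and 0.228 in the IAA group (n = 3 each).

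Adding BAP to IAA changed 11857 of 38239 tested gene models at 10 days, which is 31% of them. The model count was 5430 higher, or 14.2% of those tested, and 6427 lower, or 16.8% (edgeR quasi-likelihood F-test, Benjamini-Hochberg adjusted p under 0.05). Falls were the deeper of the changes. The median log2 change was -1.39 among models called lower (quartiles -2.86 and -0.67) and 0.80 among those called higher (quartiles 0.49 and 1.57), against 0.01 over all tested models. A fall of at least 4-fold was seen at 2386 called models (6.24% of those tested) and a rise of that size at 942 (2.46%). At 16-fold or more there were 823 falls (2.15%) and 249 rises (0.651%). Which side held more calls depended on the scaling. Scaled by total counts alone, 6365 models were higher and 5740 lower, and the median of all genes moved to 0.06.

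Groups without overlap are favoured by the calls, so the following counts describe them and are no further support. Every combined library lay above every IAA library at 5054 of the models called higher and below every IAA library at 6109 of those called lower, 93.1% and 95.1% of the calls. Over all tested models, called or not, such separation was found upwards at 19.7% and downwards at 21.3%.

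**Figure D1:**
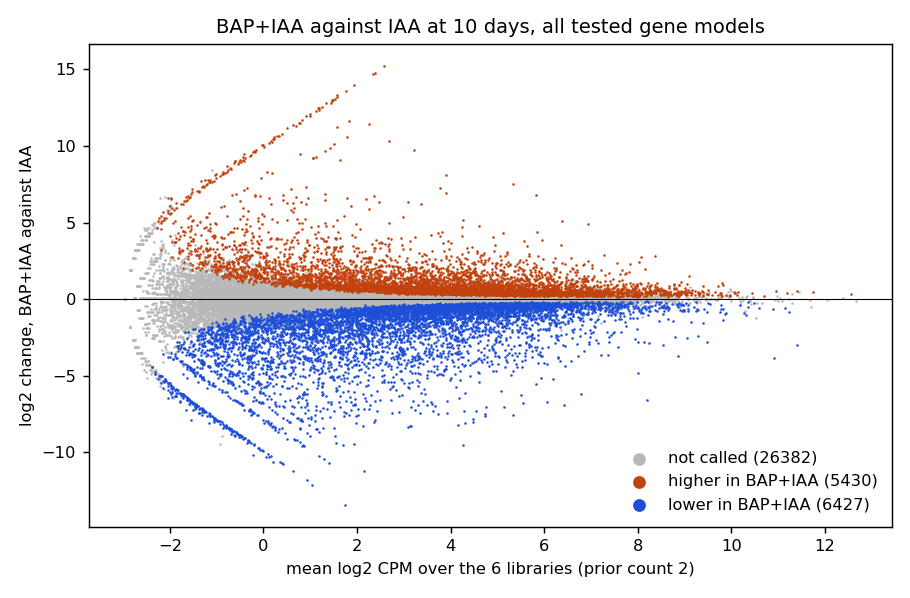
Log2 change of BAP+IAA against IAA at 10 days (vertical axis) against the mean log2 CPM of the 6 libraries (horizontal axis), 1 point for each of 38239 tested gene models, with 5430 called higher in orange and 6427 called lower in blue. Called falls of at least 4-fold number 2386 and called rises of that size 942, and the straight streaks at the left are models without a read in 1 of the groups, whose fitted change depends on the prior count.

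The balance of higher and lower calls varied with abundance. Among 1898 models that averaged at least 100 CPM over all 36 libraries (CPM, counts relative to the size of a library, with no correction for the length of a model), 652 were higher and 375 lower, 34.4% and 19.8%. Among 17492 models at 1 to 10 CPM, 1841 were higher and 2612 lower, 10.5% and 14.9%. Under 1 CPM the higher calls numbered 428 and the lower calls 876 of 5972. The abundant models changed by less. At 100 CPM or more the median log2 change was 0.46 among those called higher and -0.59 among those called lower, and at 1 to 10 CPM it was 1.14 and -1.72. Models with few reads need a larger change to be called, so these medians move with depth. The excess of rises among the abundant models was also found with RLE size factors (636 and 385), total counts (766 and 314) and DESeq2 (656 and 391).

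The calls took up a large part of the messenger pool. Models called higher held 34%, 33.6% and 34.1% of the reads in the combined libraries and 20.6%, 20.5% and 20.4% in the IAA libraries. Models called lower held 14%, 14% and 13.8% in the combined libraries and 29.8%, 29.1% and 29.6% in the IAA libraries. These sets were chosen on the same 6 libraries, so the gap between them is a description of the calls and no test. In libraries not used for the choice, the higher set held 31.3 ± 0.475% with BAP alone and 24.3 ± 0.601% in Mock at 10 days (SD, n = 3). The lower set held 15.3 ± 0.184% with BAP alone and 22.4 ± 0.337% in Mock (SD, n = 3). With BAP alone the shares thus lay nearer to those of the combination than to those of IAA. Mock lay between, nearer to IAA. At 15 days the higher set held 31.8 ± 0.504% in the combination and 21.2 ± 0.594% with IAA, and at 5 days 32.2 ± 0.489% and 29 ± 0.837% (SD, n = 3). The IAA libraries of 5 days stood apart from those of 10 and 15 days in this share, while the combined libraries of the 3 days lay between 31.4% and 34.1%.

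**Figure D2:**
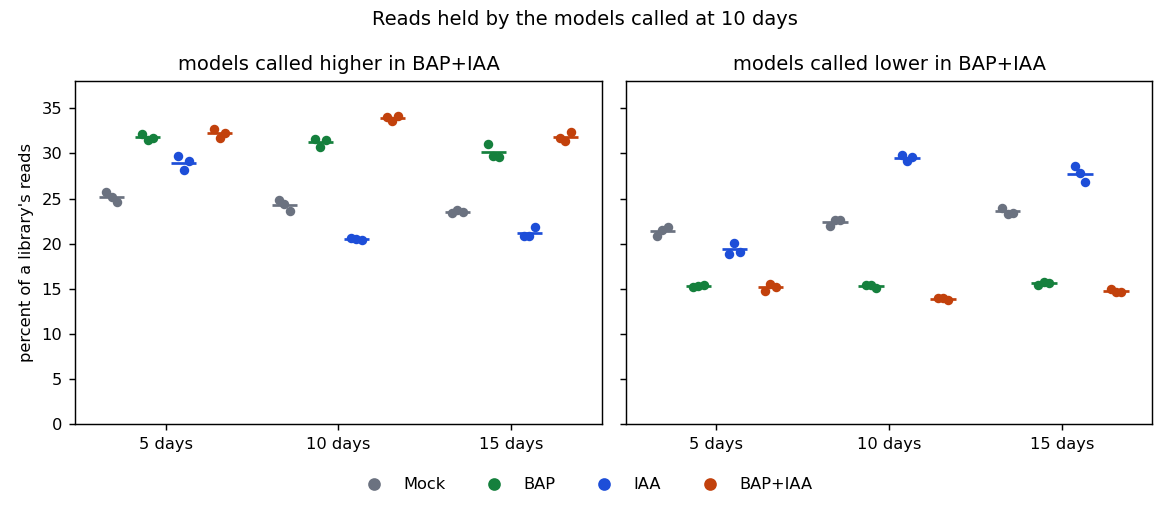
Percent of each library's reads held by the models called higher (left) and lower (right) in BAP+IAA against IAA at 10 days, for all 36 libraries (points) with group means (lines), by day and treatment. IAA libraries of 10 and 15 days do not overlap the other groups in either panel, with Mock the nearest to them. On average, IAA libraries of 5 days (29%) lie nearer to the combination (32.2%) than to Mock (25.1%) of that day on the left. On the right they (19.4%) lie nearer to Mock (21.4%) than to the combination (15.1%).

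The 4 models named here were chosen as called, without overlap between the groups, and with the largest change in mean CPM, so their values at 10 days describe the choice and support nothing further. Differences between their change at 10 days and other contrasts use the same libraries, so the choice bears on them too. The named models with the largest fall in mean CPM had the most reads under IAA alone, which a choice by absolute CPM favours. MA_10427345g0010 stood at 8639.1, 6937.2 and 7420.8 CPM in the 3 IAA libraries and took more of their reads than any other model, 0.721% over the group. With BAP added it stood at 1086.1, 849.1 and 978.5 CPM. The highest combined library was below the lowest IAA library, as the choice required. The mean was 7665.7 ± 877 CPM with IAA and 971.2 ± 118.7 CPM with both (SD, n = 3), a 7.91-fold fall (log2 change -2.98 ± 0.38 SE, edgeR adjusted p = 5e-07). In Mock the model was at 289, 364.2 and 163.1 CPM and with BAP alone at 414.9, 212 and 382.3 CPM, so these groups overlapped each other and lay below the combination. It also fell with added BAP at 5 days (log2 change -2.06 ± 0.36 SE, edgeR adjusted p = 0.00021) and at 15 days (-2.82 ± 0.37 SE, edgeR adjusted p = 1.2e-06).

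MA_189802g0010 was next in reads under IAA alone, with 8020.2, 7978.6 and 6323.4 CPM. With both hormones it was at 689.5, 468.7 and 389.5 CPM, a 14.7-fold fall (log2 change -3.85 ± 0.49 SE, edgeR adjusted p = 5.7e-07). In order of reads it went from place 2 with IAA to place 194 in the combination. BAP alone did not lower it. It stood at 296.7, 493.3 and 871.2 CPM with BAP alone and at 54.1, 62 and 22.3 CPM in Mock, so BAP raised it in the absence of IAA (log2 change 3.59 ± 0.49 SE, edgeR adjusted p = 3.2e-06). The levels with BAP alone and with both hormones overlapped. The effect of BAP thus had opposite signs with and without IAA, and the difference of the log2 changes was -7.44 ± 0.69 (SE, edgeR adjusted p = 5.2e-08). At 5 days the model stood at 1001.4 ± 127.8 CPM with both and 1785.2 ± 330.8 CPM with IAA (SD, n = 3), where the difference was not called (log2 change -0.83 ± 0.44 SE, edgeR adjusted p = 0.24).

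The named models with the largest rise in mean CPM were abundant in every group, which the same choice favours, and rose by little. They do not stand for the size of the rises, as 249 called models rose at least 16-fold. MA_434977g0010 stood at 6874.1, 6880.2 and 6746.1 CPM in the combined libraries and at 5688.8, 5405.6 and 5057.9 CPM in the IAA libraries, a 1.27-fold rise (log2 change 0.34 ± 0.05 SE, edgeR adjusted p = 3.7e-06). It was the model with the most reads in the combination and the fourth with IAA. MA_75633g0020 stood at 3864.2, 3999.5 and 4125.6 CPM in the combination and at 2903.6, 3193 and 2757.5 CPM with IAA, a 1.36-fold rise (log2 change 0.44 ± 0.07 SE, edgeR adjusted p = 1.4e-05). In Mock at 10 days it stood at 1743 ± 90.9 CPM and with BAP alone at 3228.2 ± 76.6 CPM (SD, n = 3), so that the combination was the highest and Mock the lowest of the 4 groups, with no overlap between the combination and any other group. BAP raised it by more without IAA (log2 change 0.89 ± 0.07 SE) than with it, a difference of -0.45 ± 0.1 (SE, edgeR adjusted p = 0.0024). Reads of near-identical copies of a gene may have been split or lost in the authors' counting, which leaves the level of any single model uncertain.

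**Figure D3:**
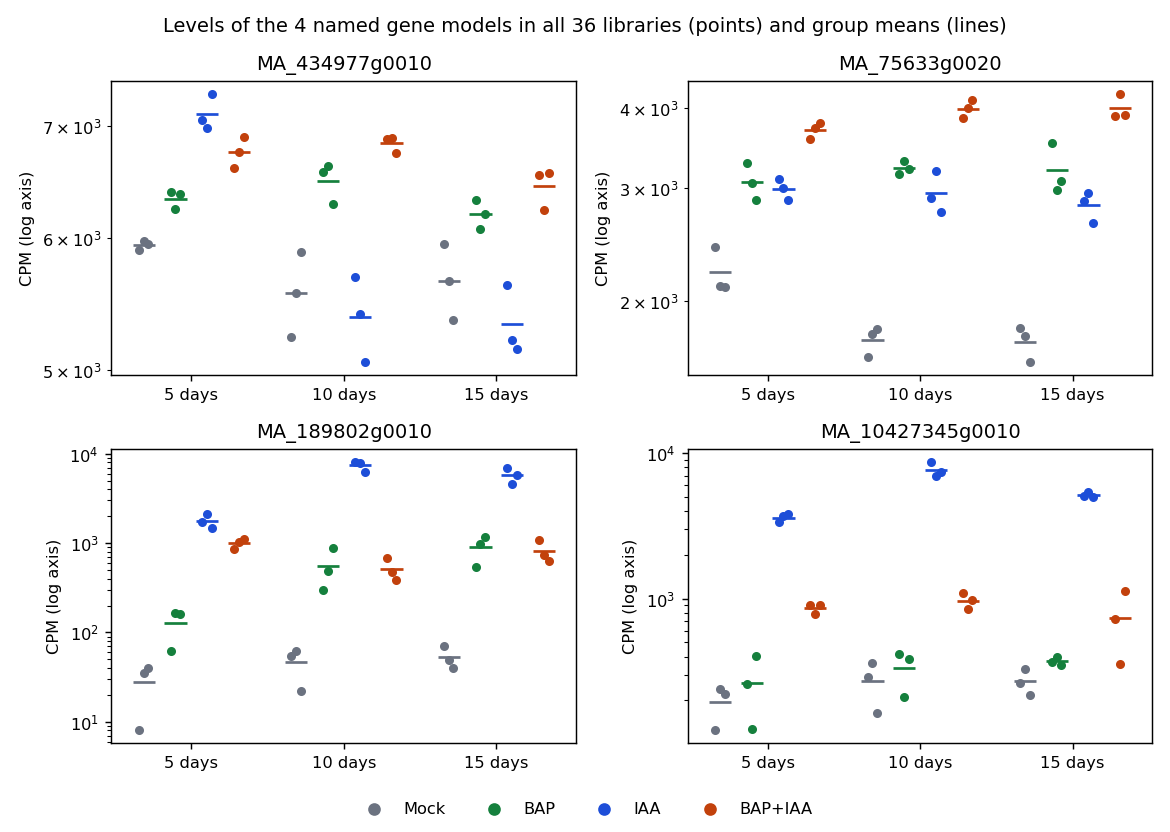
CPM on a log axis of the 4 named gene models in all 36 libraries (points) with group means (lines), by day and treatment. The lower panels show the models that fell, with IAA at 10 days highest at 7440.7 and 7665.7 CPM on average, and the upper panels show the models that rose, on a much narrower axis.

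Among the 100 models with the most reads in the IAA group, 37 were lower and 17 higher with BAP added, where 16.8% and 14.2% of all tested models were. Among the 100 with the most reads in the combined group, 37 were higher and 12 lower. The lists shared 75 models. They were ranked on the libraries of the contrast, so a lean towards falls in the IAA list and rises in the combined list is partly set by the ranking.

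A small set of models was seen in 1 of the groups alone. With no read in any IAA library and at least 10 reads in every combined library there were 79 models, and all were called, as such a choice nearly requires. Against a floor of 3 counts over the IAA group they were at least 16.4-fold to at least 5027.8-fold higher, with a median bound of 107.8-fold. Of these, 64 had no read in Mock and 57 none with BAP alone at 10 days, and 50 had none in either. In the libraries of 15 days all 79 had a higher mean with BAP added than with IAA alone and 73 were called higher, against 14.2% of all tested models. At 5 days 75 had a higher mean and 26 were called higher, against 6.2%. Models chosen in this way can pass the filter through combined libraries alone, which favours the same side on other days. These counts therefore describe the choice in part and are no independent test.

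The reverse pattern, no read in any combined library and at least 10 reads in every IAA library, was found at 110 models, 109 of them called, which the choice again nearly fixes. They were at least 10.2-fold to at least 1352.1-fold lower, with a median bound of 43.2-fold. Mock had no read of 54 and BAP alone none of 69. At 15 days all 110 had the lower mean in the combination, with 104 called lower, against 16.7% of all tested models, and at 5 days 87 had the lower mean, with 29 called lower, against 7.59%. The same limit holds for these counts, with the IAA libraries in place of the combined ones. A count of 0 limits the level to 3 counts, 0.178 to 0.232 CPM in a single library, which covers counting error only.

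The same contrast in the libraries of 5 and 15 days shows how the 10-day difference stood in time. At 5 days 13.8% of tested models were called, 6.2% higher and 7.59% lower. At 15 days 31% were called, 14.2% higher and 16.7% lower, shares close to those of 10 days. Across 38239 models the log2 changes of 10 days correlated at r = 0.57 (rho = 0.36) with those of 5 days and at r = 0.82 (rho = 0.68) with those of 15 days. These contrasts share no library. The points are genes, which are not independent replicates and which share the scaling and the spread estimate of 1 model. Models with few reads weaken the correlation, which was 0.62 and 0.86 over models averaging at least 1 CPM and 0.40 and 0.63 without a filter.

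Of 2369 models that were higher with added BAP at 5 days, 1349 were also called higher at 10 days, 56.9% against a background of 14.2%, and 109 were called lower. Of 2904 lower at 5 days, 1748 were lower at 10 days, 60.2% against 16.8%, and 147 were higher. From 15 days the shares were 58.8% of 5448 higher models and 72.4% of 6404 lower ones, with 18 and 19 models of opposite sign. Models called on both other days can be read in the same way. Of 1298 such models higher at 5 and 15 days, 1050 (80.9%) were called higher at 10 days, with a median log2 change of 1.21. Of 1562 lower on both, 1416 (90.7%) were lower at 10 days, with a median of -1.86. In each direction 1 of these models had the opposite call at 10 days.

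The change of the effect with time was tested directly. Between 10 and 5 days the effect of added BAP differed at 4500 models, 11.8% of those tested. Among the 6427 models lower at 10 days 2141 had a called difference with the log2 change further down than at 5 days, and among the 5430 higher models 1506 had one further up. Being called at 10 days favours such models, so these counts describe the calls and are no further test. MA_189802g0010 was among the former, with a log2 change of -3.85 at 10 days and -0.83 at 5 days, a difference of -3.02 ± 0.63 (SE, edgeR adjusted p = 0.0018). MA_434977g0010, among the latter, went from a log2 change of -0.08 ± 0.05 at 5 days to 0.34 ± 0.05 at 10 days (SE), a difference of 0.42 ± 0.07 (SE, edgeR adjusted p = 0.00019).

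Between 15 and 10 days the effect differed at 286 models, 0.748% of those tested, while 4627 had an unadjusted p under the threshold. That count moved with the tool and with single libraries. DESeq2 called 536. Without BAP+IAA replicate 2 or 3 of 10 days it was 150 and 98, without IAA replicate 1 or 3 of 10 days 168 and 124, without BAP+IAA replicate 1 of 15 days 138 and without IAA replicate 3 of 15 days 156. None of these settings brought it near the 4500 of the earlier interval. A missing call does not show that the effects of 10 and 15 days were equal.

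**Figure D4:**
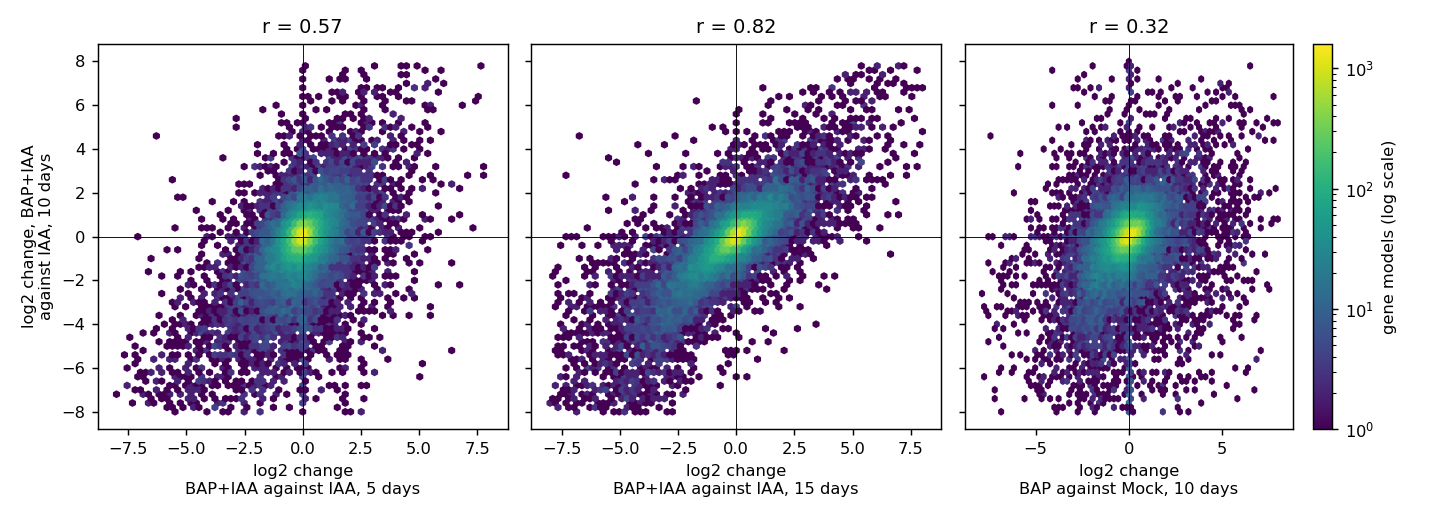
Log2 change of BAP+IAA against IAA at 10 days (vertical axis) against the same contrast at 5 days (left) and 15 days (middle) and against BAP over Mock at 10 days (right), as a density of gene models on a log colour scale. Pearson's r is 0.57, 0.82 and 0.32 and Spearman's rho 0.36, 0.68 and 0.37 from left to right, and models beyond a log2 change of 8 on either axis (230, 261 and 232) are not drawn.

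BAP was also given without IAA, and that contrast (BAP against Mock at 10 days) shares no library with the one described here. BAP alone changed 30.6% of tested models, 14.2% upwards and 16.4% downwards. The log2 changes with and without IAA correlated at r = 0.32 (rho = 0.37) across genes. Of 5424 models raised by BAP alone, 2225 (41%) were higher with BAP added to IAA and 286 (5.27%) were lower, against 14.2% and 16.8% of all tested models. Of 6282 models lowered by BAP alone, 2848 (45.3%) were lower and 370 (5.89%) higher. Seen from the other side, 41% of the models called higher in the combination and 44.3% of those called lower had the same call with BAP alone. Of 5729 models called in both contrasts, 88.5% had the same sign. The median log2 change of the models raised by BAP alone was 0.73 without IAA and 0.33 with it, and that of the models lowered was -1.02 and -0.43. The first value of each pair comes from the libraries that chose the models, and such a choice favours large values.

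The difference between the effects of BAP with and without IAA was called at 4944 models, 12.9% of those tested, 2433 (6.36%) with the higher and 2511 (6.57%) with the lower change in the presence of IAA. MA_10427345g0010 was an example of the latter. BAP alone left it at a log2 change of 0.31 ± 0.35 (SE, edgeR adjusted p = 0.56), and the difference was -3.29 ± 0.51 (SE, edgeR adjusted p = 6.7e-05).

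The models were then grouped by their response to IAA alone, taken from the libraries of 5 and 15 days, which do not enter the 10-day contrast. IAA raised 23.1% and lowered 24.1% of tested models at 5 days, and raised 18.1% and lowered 15.9% at 15 days. It raised 4077 models on both days and lowered 4513 on both, and 16282 were called on neither. The remaining 13367 were called on 1 of these days or with opposite signs. Adding BAP at 10 days changed 52.6% of the raised models and 41.6% of the lowered ones, against 31% of all tested models and 17.2% of those called on neither day. The called classes also held more abundant models, with median Mock levels at 10 days of 6.97 CPM (raised) and 19.1 CPM (lowered). Models called on neither day had a median of 3.3 CPM. Abundant models were called more often in this contrast, and the part of abundance in these gaps was not tested.

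Among models raised by IAA, 1321 (32.4%) were lower with BAP added and 824 (20.2%) higher, against 16.8% and 14.2% of all tested models. The larger the rise with IAA on the other days, the more of the models fell with added BAP. Of 2065 models raised less than 2-fold on at least 1 of these days, 17.4% were lower and 27.9% higher. Of 857 models raised at least 4-fold but not 16-fold on both, 46.2% were lower and 12.1% higher. Of 405 models raised at least 16-fold on both days, 281 (69.4%) were lower and 29 (7.16%) higher. The medians of these 405 at 10 days, each taken separately, were 0.128 CPM in Mock, 0.322 CPM with BAP, 18.3 CPM with IAA and 2.52 CPM with both. The median over models of the log2 ratio to Mock was 6.54 with IAA and 3.50 with both. These ratios came from pooled counts with a floor of 3 counts over a group. The models raised less than 2-fold had a median of 21.2 CPM in Mock, so the size of the rise went with a low Mock level. Models with few reads in Mock can pass the filter through the libraries with IAA, where they are high. The part of both in the gradient of falls was not tested. In the tests against Mock at 10 days, which share the Mock libraries, 387 of the 405 were called higher with IAA and 278 with both, against 21.3% and 23% of all tested models. Part of the rise therefore remained in the medians of this class when BAP was present. The models raised by less than 2-fold had nearly equal medians, 35 CPM with IAA and 34.5 CPM with both.

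Among models lowered by IAA, 939 (20.8%) were higher with BAP added and 937 (20.8%) lower. Their median level at 10 days was 19.1 CPM in Mock, 12.6 CPM with BAP, 9.45 CPM with IAA and 9.51 CPM with both. Adding BAP thus did not move the median of this class, while the class held both rises and falls more often than all tested models. The median Mock level of all tested models was 5.66 CPM, and the part of abundance in this was not tested.

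Crossing both groupings separated the directions. Neither of the single-hormone contrasts used here shares a library with BAP+IAA against IAA at 10 days. In that contrast 14.2% of all tested models were higher and 16.8% lower. Of 139 models raised by IAA and lowered by BAP alone, 118 (84.9%) were lower with BAP added to IAA and 1 was higher. Their median was 11.9 CPM in Mock, 43 CPM with IAA and 12.8 CPM with both. Of 152 models lowered by IAA and raised by BAP alone, 126 (82.9%) were higher and none lower, with medians of 19.2 CPM in Mock, 9.84 CPM with IAA and 25.9 CPM with both. With both hormones the median of the first class thus lay nearer to Mock than to IAA. That of the second class lay beyond Mock, on the side away from IAA. The Mock libraries of 10 days helped choose these classes by the response to BAP. That favours high Mock values in the first class and low Mock values in the second. The place of the combination against Mock is therefore a description and no test.

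Models moved the same way by both hormones alone were in part changed further in that direction by the addition. Over all tested models 14.2% were higher and 16.8% lower. Of 1720 models raised by each, 679 (39.5%) were higher and 200 (11.6%) lower, and the median level went from 28 CPM with IAA to 31.6 CPM with both. Of 2475 models lowered by each, 860 (34.7%) were lower and 268 (10.8%) higher, and the median went from 11.5 to 8.71 CPM. Without BAP replicate 3 of 10 days the 268 became 156. The difference between these shares and those of the oppositely moved models was not tested. At 629 of the models raised by each, the effect of BAP was called lower with IAA than without it, and at 2 higher. Among the models lowered by each, 855 had the higher change with IAA and 30 the lower. Over all tested models 6.36% had the higher change with IAA and 6.57% the lower. The BAP and Mock libraries of 10 days also chose these classes, which favours such differences.

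Many models raised by IAA fell with added BAP and had no call with BAP alone. Of 2218 models raised by IAA and not called with BAP alone, 1003 (45.2%) were lower and 144 (6.49%) higher. Over all tested models 16.8% were lower and 14.2% higher. In this class 276 called models fell at least 16-fold, against 2.15% of all tested models. The median of the class was 3.53 CPM in Mock, 4.29 CPM with BAP, 15.9 CPM with IAA and 8.07 CPM with both. MA_10427345g0010 belonged to this class. The effect of BAP was called lower with IAA than without it at 495 of the 2218 models and higher at 18. Over all tested models these shares were 6.57% and 6.36%. At the other models that fell, a difference between BAP with and without IAA was thus not shown. The BAP and Mock libraries of 10 days also helped choose this class. Of 1886 models lowered by IAA and not called with BAP alone, 545 (28.9%) were higher and 77 (4.08%) lower. The small counts moved with single libraries of 10 days. Without BAP replicate 3 the 144 became 226 and the 77 became 119, and the 77 became 117 without Mock replicate 3, 49 without IAA replicate 1 and 48 without BAP+IAA replicate 3. Without a filter on low counts the shares of the next class were 4.32% and 3.12%. Of 13771 models called neither with IAA at 5 or 15 days nor with BAP alone at 10 days, 1106 (8.03%) were higher and 756 (5.49%) lower, 13.5% in all against a background of 31%. With IAA alone at 10 days 805 of them were called higher than Mock and 812 lower, where 21.3% and 18.9% of all tested models were. A missing call with a single hormone does not show that it had no effect.

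**Figure D5:**
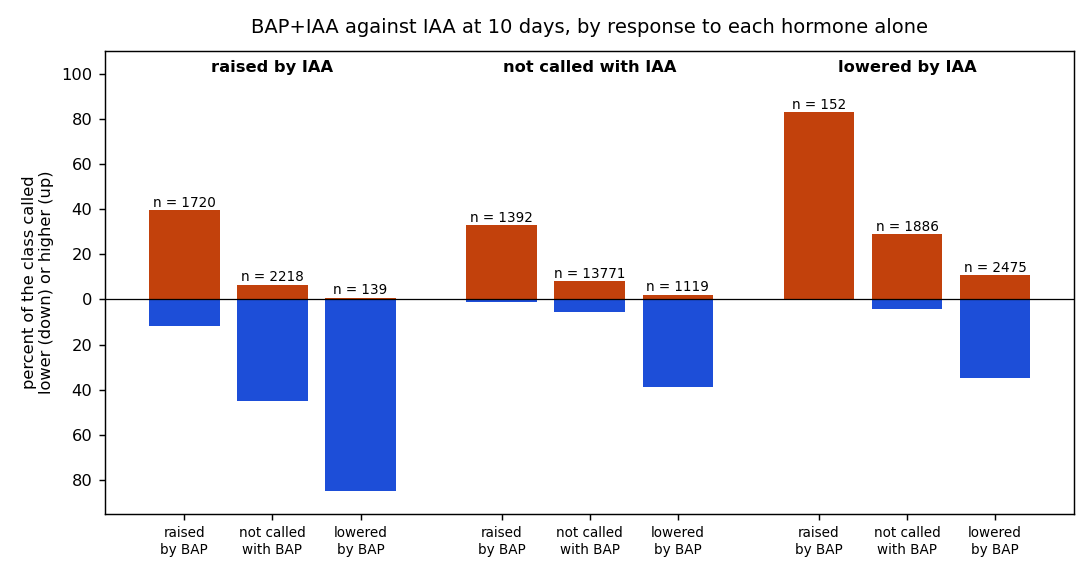
Percent of the models in each class that were called higher (orange, upwards) or lower (blue, downwards) in BAP+IAA against IAA at 10 days. Classes combine the response to IAA alone at 5 and 15 days (3 blocks) with the response to BAP alone at 10 days (bars within a block), with the number of models above each bar, and the tallest bars are those of models the hormones moved in opposite directions (84.9% lower and 82.9% higher).

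Gene models with neighbouring identifiers often had the same call. Identifiers share a part before the letter g and are numbered after it, and 2261 pairs of tested models had the same first part and consecutive numbers. In 387 of these pairs both models were called. Both were higher in 152 pairs and both lower in 204, and in 31 they had opposite signs. Given a called model, its neighbour had the same call in 52.6% of cases, against 14.2% and 16.8% of all tested models. The log2 changes of neighbours correlated at r = 0.64 over the 2261 pairs. Neighbours can be parts of 1 gene or overlap, and reads of overlapping models cannot be told apart where the strand setting is not stated, so the part of shared reads in this likeness was not tested.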

How the data were processed

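RNA of 36 hypocotyl libraries was sequenced. The authors deposited whole-number read counts for each gene model, without normalisation. The submitters' processing notes list Trimmomatic, STAR and HTSeq and no versions. The sources used here give no genome build, annotation or strand setting. Each column is headed by a replicate, hormone initials and a number from 1 to 3, taken here as the order of the collection days.

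Here, edgeR's filterByExpr kept 38239 of 70736 models (18409 had no read). All 36 libraries entered 1 edgeR quasi-likelihood model of 12 group means with TMM factors (R 4.3.3, edgeR 4.0.16, limma 3.58.1), and each contrast was tested 2-sided with Benjamini-Hochberg adjustment at 0.05 over all tested models. CPM uses TMM-scaled library sizes. Pooled folds set group counts under 3 to 3. SEs of log2 changes were derived from the F statistic. Log2 levels used a prior count of 2. Library totals give each library's depth, and 3 counts are 0.178 to 0.232 CPM.

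Named models had to be called with no overlap between the groups, and the 2 with the largest rise and the 2 with the largest fall in mean CPM were taken. The groups, classes and rules were chosen with earlier results of these data known. The model was also run on simulated data in which a small set of models changed in the combined group alone. That setting is simpler than these data, where 31% of tested models were called. Alternatives were RLE and total-count scaling, other filters, DESeq2 1.42.0, a replicate block, a fit of the 6 libraries alone and leaving out each library.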

Additional observations from a re-analysis of the deposited data

Results flagged for a closer look

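The effect of adding BAP differed between days or between backgrounds by a test of the difference itself (edgeR quasi-likelihood F-test, adjusted p under 0.05). It differed at 4500 models between 10 and 5 days, at 286 between 15 and 10 days, and at 4944 between tissue with and without IAA at 10 days. MA_434977g0010 had a log2 change 0.42 higher at 10 than at 5 days, and MA_189802g0010 one that was lower by -3.02. Between tissue with and without IAA the log2 change with BAP differed by -7.44 at MA_189802g0010, by -3.29 at MA_10427345g0010 and by -0.45 at MA_75633g0020. These models were chosen for a large change in the 10-day libraries that enter each difference, so their values are no independent support. The causes were not tested. Groups of 3 libraries are too small for a test of single outlying libraries.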

How the results depend on the processing

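The counts of higher and lower models stayed within 1.5 times the reported ones under every setting tried. They ran from 4162 (the 6 libraries alone) to 6365 (total counts) for higher and from 5501 to 6677 for lower models. Leaving out 1 of the 6 libraries gave 4521 to 4859 higher and 5535 to 5912 lower models. The difference between 15 and 10 days was the exception, with 536 models under DESeq2 and 98 to 300 when 1 library was left out. The cause was not tested. The other differences ran from 3429 to 4354 (10 minus 5 days) and from 4035 to 4888 (with minus without IAA) when 1 library was left out. With 1 library left out the correlation across genes was 0.49 to 0.57 with 5 days and 0.78 to 0.8 with 15 days. With BAP alone it was 0.28 to 0.31. The reported 0.82 (15 days) and 0.32 (BAP alone) lay above these ranges. The counts by IAA class and those shared with other days also stayed within 1.5 times. So did the counts run for the crossed classes, apart from 3. Leaving out 1 library moved the higher models lowered by both hormones from 268 to as few as 156, those raised by IAA and not called with BAP from 144 to as many as 226, and the lower models lowered by IAA and not called with BAP from 77 to between 48 and 119. Without a filter on low counts the models called with neither hormone were higher at 4.32% and lower at 3.12%. The classes by size of the rise with IAA, the models that moved against BAP alone (286 and 370) and the rarer direction where the hormones alone had opposite effects were not run under other settings. The 4 named models kept their direction and their call under every setting.

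Deviations of same-numbered libraries from their group means correlated at 0.164, 0.0914 and 0.0887, each the highest for its number, but not all over 0.1, so the numbers were not taken to pair the libraries, although the second principal component set replicate 1 apart in both groups. With the replicate block 5617 models were higher and 6677 lower (4606 and 5991 in the 6 libraries alone). It gave 4859, 355 and 5418 models for the 3 differences. With total counts the side with more calls turned. Among models under 1 CPM, 427 of the 428 called rises were at least 2-fold, so smaller rises of such models were mostly not detectable at this depth. An earlier edgeR dispersion procedure, added after seeing the data, gave 5298 and 6212.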
